A study of Sus scrofa with 4 samples.

Results

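Long intergenic noncoding RNAs (lincRNAs) that had been newly assembled from the sequencing reads of differentiating pig preadipocytes numbered 1625, out of 22944 genes listed in FPKM and 31567 genes and circRNAs listed in all. They were chosen by their biotype label alone (linc), and each carries an assembler's name that starts with MSTRG. The cells were subcutaneous preadipocytes of Chinese Erhualian pigs, a fat Chinese breed. They came from 3 male piglets, 5 days old, and were differentiated in culture. D0 was the confluent culture before induction. D2 had received the hormone cocktail of dexamethasone, 3-isobutyl-1-methylxanthine (IBMX) and insulin since D0, D4 had then received insulin alone, and D8 had been kept in growth medium after D4. RNA of the 3 piglets was mixed in equal parts and made into 1 strand-specific library per stage. The sequencing therefore did not measure the spread between piglets, and no test could be made between stages. In such pooled cultures, fewer cells of a type and less RNA per cell cannot be told apart.

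LincRNAs are transcribed by RNA polymerase II from their own promoters, are usually spliced, and hold no long open reading frame. Many start close to the promoter of an mRNA gene and run in the opposite direction (divergent transcription), and others lie downstream of an mRNA gene on the same strand, where a lincRNA can be hard to tell from an unannotated part of the neighbour's 3′ end. Some lincRNAs act on a neighbouring gene (in cis), some act elsewhere in the cell (in trans), and for most no function is known. In adipogenesis, individual lincRNAs have been described that act with or against the master transcription factors of the fat cell.

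For 3 of the lincRNAs the study designed primer pairs, and these are the only stretches of lincRNA sequence shown here. They are given because these 3 lincRNAs were among those that differed from D0 at every later stage (see the levels of MSTRG.146410, MSTRG.42239 and MSTRG.62128 further on). The study used these primers for quantitative RT-PCR on 3 RNA samples per stage, and it reported trends similar to those of its sequencing. Those values are not given here. The primers are written 5′ to 3′ in the order of the study's list.
MSTRG.146410, first primer: tgttctcgtgatggtgcgaa
MSTRG.146410, second primer: attgcccaagctcatcggaa
MSTRG.42239, first primer: ggttctgccggacctttctt
MSTRG.42239, second primer: ggcccacgtcctacttcaaa
MSTRG.62128, first primer: tcttgcccggtggtactttc
MSTRG.62128, second primer: acgtagtccagttgctgctc

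The library totals behind FPKM were between 54128151 (D8) and 75387428 (D0) counted fragments, and D2 and D8 were the shallower libraries. Of 7 preadipocyte or fibroblast markers, 7 were above an FPKM of 1 at every stage, and the summed FPKM of 7 adipocyte markers was 125 (D0), 503 (D2), 1773 (D4) and 2066 (D8). Their median was 3.90 (D0), 36.1 (D2), 179 (D4) and 90.3 (D8), so that it was lower at D8 than at D4. The D8 sum came mostly from the highest single marker, at 1557 FPKM, whereas the highest at D4 was at 853 FPKM. Among markers of other cell types, 1 of 4 endothelial, 1 of 3 measured immune, 1 of 3 epithelial and 1 of 2 measured muscle markers reached an FPKM of 1 at every stage. The summed FPKM ran from 1.16 to 2.59 for the endothelial list, from 3.00 to 7.76 for the immune list and from 5.13 to 26.1 for the epithelial list. The muscle list was at 436 (D0), 37.7 (D2), 4.05 (D4) and 35.7 (D8), nearly all of it from desmin (DES), an intermediate filament protein. The part of these markers in the lincRNA differences was not tested.

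Most of the lincRNAs were scarce. FPKM was above 0 for 1188 (D0), 1064 (D2), 1189 (D4) and 1125 (D8) of them, and 684 were found in all 4 libraries, 289 in 3, 311 in 2 and 341 in 1. At its highest stage a lincRNA had a median FPKM of 0.613, against 2.90 for the 16192 mRNAs, 0.698 for the 906 antisense lncRNAs and 0.0999 for the 3084 annotated lncRNAs. The highest FPKM was under 1 for 1225 lincRNAs, from 1 to under 5 for 350, from 5 to under 10 for 14 and at least 10 for 36. Read numbers recovered from FPKM came to a median of 27 reads per lincRNA over the 4 libraries, and 278 lincRNAs had fewer than 10. For 1024 of the 1625, the exon length recovered from FPKM was under 500 bases, with a median of 376 bases (200 to 21697), whereas the genomic span from first to last base had a median of 2380 bases (225 to 618416).

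**Figure D1:**
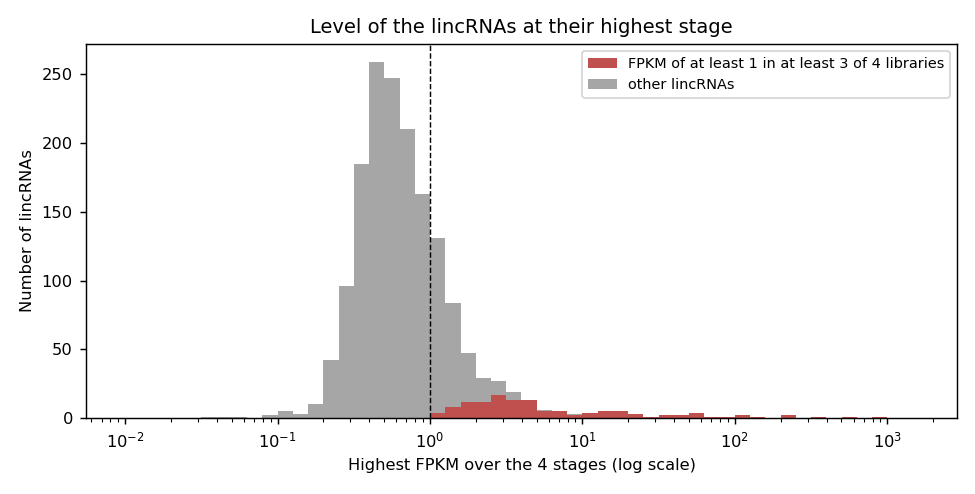
Number of lincRNAs (vertical axis) by their highest FPKM over the 4 stages (horizontal axis, log scale), with 1 pooled library per stage. The dashed line marks an FPKM of 1: 400 of the 1625 lincRNAs reached it in at least 1 library, and 127 (dark red) in at least 3 of the 4.

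Reliably expressed, that is with an FPKM of 1 or more in 3 or more libraries, were 127 lincRNAs (7.82%). The share was 56.8% for mRNAs, 10.5% for antisense lncRNAs and 6.74% for annotated lncRNAs. The 127 had at least 65 reads each over the 4 libraries, with a median of 634, and their median recovered length was 610 bases. They held 90.6% (D0), 90.2% (D2), 85.1% (D4) and 89.7% (D8) of the lincRNA reads. All lincRNA reads together made up 0.448% of the library total at D0 (95% Wilson interval 0.446 to 0.449), 0.401% at D2 (0.400 to 0.403), 0.308% at D4 (0.307 to 0.310) and 0.353% at D8 (0.351 to 0.354). As a share of the summed FPKM of all genes, which needs no length, lincRNAs were at 0.338%, 0.282%, 0.263% and 0.244% in the same order, lowest at D8. That order rests on the signal recognition particle RNA, 1 gene with a large part of the summed FPKM: without it the shares were 0.597%, 0.565%, 0.456% and 0.476%, lowest at D4 as for the reads. These and all other intervals given here cover counting error only, since reads that come from PCR copies are not independent molecules and the piglets were pooled. Only 1 length fitted for 507 of the 1625 lincRNAs, and the recovered reads of the others are lower limits. The intervals of the read shares do not cover that.

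A few lincRNAs held most of these reads. The 10 with the most reads held 79.9% (D0), 79.4% (D2), 71.5% (D4) and 78.4% (D8) of all lincRNA reads. MSTRG.102815 alone (chr12:19639812-19713648, plus strand) held 41.1% (D0), 33.6% (D2), 20.9% (D4) and 32.6% (D8), so that its level bears on the total. More than 1 length fitted for MSTRG.102815, so that these shares of the recovered reads are approximate. Its FPKM was 332 (D0), 244 (D2), 117 (D4) and 208 (D8), lowest at D4, with a log2 ratio of -1.51 (-1.53 to -1.50) for D4 vs D0. On the minus strand, 965 bases further along, MSTRG.102817 (chr12:19714613-19725922) had the highest mean FPKM of all lincRNAs, with 879.5 (D0), 834 (D2), 591 (D4) and 909.5 (D8). Both lincRNAs of this locus were thus lowest at D4, and for MSTRG.102817 the difference from D0 was smaller (log2 ratio -0.57, -0.60 to -0.55).

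The other 6 of the 8 most abundant lincRNAs were of several kinds. MSTRG.135860 (chr15:110577258-110619347, plus strand) was at 230.3 (D0), 523 (D2), 315 (D4) and 221 FPKM (D8), highest at D2. MSTRG.84066 (chr9:4696568-4702189, minus strand) was highest at D4, with 54.2, 102, 131 and 65.9 FPKM at the 4 stages in order. MSTRG.11093 (chr1:182978721-182979100, plus strand) was lowest at D0, with 101, 199.5, 169 and 138 FPKM. These 3 lincRNAs were higher at D2 and D4 than at D0, and none had a coding gene within 50 kb. MSTRG.107272 (chr13:12575246-12575607, minus strand) lies 204 bases upstream of TOP2B, a DNA topoisomerase, on the same strand. It was at 101, 54.9, 57.7 and 72.4 FPKM, and TOP2B at 42.4, 24.1, 32.3 and 39.6 FPKM, both highest at D0 and lowest at D2. MSTRG.157304, 98 bases upstream of the kinase gene MARK3 on an unplaced scaffold, was among the steadier ones, with 106, 99.7, 92.4 and 82.5 FPKM. MSTRG.156935, also on an unplaced scaffold, was at 204, 149, 126 and 143 FPKM, but its span overlaps a predicted coding gene (LOC110258215) on the same strand. It is the 1 lincRNA of the 1625 of which that is true, and its reads cannot be told apart from those of that gene. Its span also overlaps a coding gene on the opposite strand.

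The positions of the lincRNAs are those of the deposited files. For 99.1% of the mRNAs, these positions were equal in symbol, start and end to the RefSeq annotation of Sscrofa11.1. The lincRNAs lay on both strands (850 plus, 775 minus), with 165 on chromosome 1, 53 on the X chromosome, 16 on the Y chromosome and 62 on unplaced scaffolds. For 1384 of them no other listed gene overlapped the span on either strand, whereas 26 overlapped an mRNA gene on the opposite strand. Another lincRNA overlapped the span on the same strand for 103, and on the opposite strand for 110. Linking lincRNAs of 1 strand that lay at most 5 kb apart put 182 of them into 79 groups, the largest with 5, and no such group held more than 1 reliably expressed lincRNA.

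The nearest mRNA was within 50 kb for 1196 lincRNAs, within 10 kb for 816 and within 1 kb for 353, with a median gap of 8941 bases (3969 bases for the reliably expressed ones). Divergent lincRNAs, on the opposite strand and on the 5′ side of the mRNA, stood apart in distance. Of 487 divergent lincRNAs, 172 (35.3%) lay less than 500 bases from the mRNA. The same was true for 48 of 525 (9.14%) downstream of the mRNA on its strand, for 21 of 308 (6.82%) upstream on its strand and for 16 of 239 (6.69%) that converged on its 3′ side. Within 50 kb, the median gap was 1093 bases for divergent lincRNAs, 3768 bases for those downstream on the same strand, 7974 bases upstream on the same strand and 7284 bases for convergent ones. The mRNA beside these 172 close divergent lincRNAs was reliably expressed in 143 cases (83.1%), while the lincRNA was in 25 (14.5%).

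**Figure D2:**
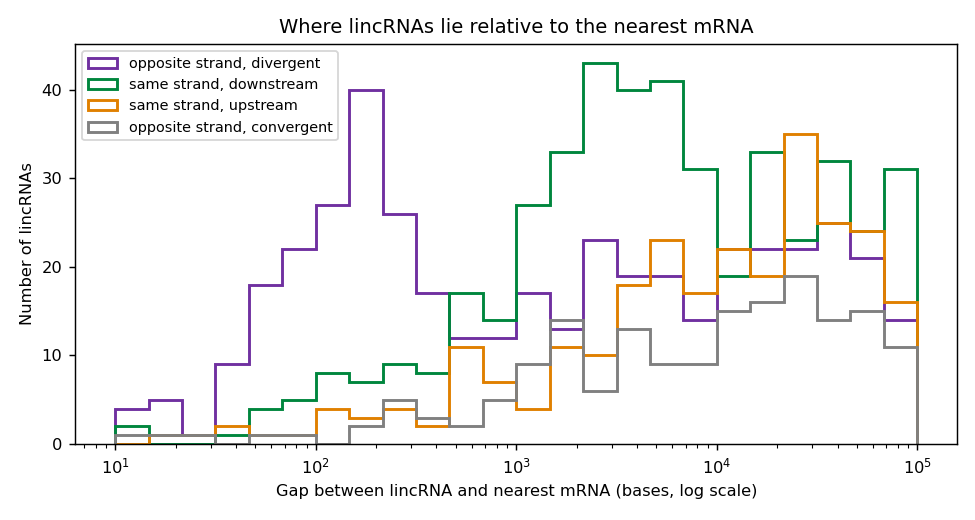
Number of lincRNAs (vertical axis) by the gap in bases to the nearest mRNA (horizontal axis, log scale, up to 100 kb), for the 4 arrangements of strand and side. Of the divergent lincRNAs, 172 of 487 lie under 500 bases, where their curve peaks, while the other arrangements are most frequent at gaps of kilobases.

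The share that was reliably expressed varied with the gap. It was 30.8% of 26 lincRNAs that overlapped an mRNA, 8.66% of 647 with a gap of up to 5 kb, 8.03% of 523 from there to 50 kb and 4.89% of 368 from there to 500 kb. Of 21 lincRNAs more than 500 kb away, 1 was reliably expressed (4.76%). All 26 overlapping lincRNAs lie opposite an mRNA, and 1 of them, MSTRG.156935, also overlaps an mRNA on its own strand. Whether reads were counted by strand is not given in the sources used here. Some mRNAs were nearest to several lincRNAs, and 13 were nearest to at least 5, led by JMJD4 with 10 and THBS2, a matricellular thrombospondin, with 8.

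The stages were compared in the 5 ways that the study's design implies: D2 vs D0 for the response to the cocktail, D4 vs D2 and D8 vs D4 for the later steps, and D4 and D8 vs D0 for the whole course. A lincRNA was counted as higher or lower where its FPKM ratio was at least 2, with 0.01 added to each FPKM. In at least 1 of the 5 comparisons, 90 of the 127 reliably expressed lincRNAs (70.9%) differed by at least 2-fold, while the same was true of 31.8% of all 9929 reliably expressed genes. The median ratio of the highest to the lowest FPKM was 2.63 for the lincRNAs and 1.67 for all genes. Among lincRNAs with a mean FPKM under 5, 66 of 87 (75.9%) differed in at least 1 comparison, against 39.3% of 3303 mRNAs at that level. From a mean FPKM of 5 upwards, 24 of 40 lincRNAs (60.0%) and 24.6% of 5888 mRNAs did. Equal FPKM is not equal reads: a short gene has fewer reads at the same FPKM. The reliably expressed lincRNAs had a median recovered length of 610 bases, and reads of the mRNAs were not recovered. The filter also lets 1 stage lie below an FPKM of 1, and only 81 of the 127 lincRNAs reached 1 in all 4 libraries. No share over all genes was computed with all 4 libraries asked. The lincRNAs, unlike the annotated mRNAs, were assembled from these same libraries. The parts of counting error, of the filter and of that selection in these contrasts were not tested.

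At D2, compared with D0, 21 lincRNAs (16.5%) were higher and 22 (17.3%) lower. Over all reliably expressed genes the shares were 7.06% and 10.7%. From D2 to D4, 10 lincRNAs (7.87%) were higher and 19 (14.96%) lower, with 4.53% and 1.49% over all genes. Lower lincRNAs thus outnumbered higher ones where the reverse held over all genes, but that split turned with the filter: among 784 lincRNAs with at least 30 reads, 195 were higher and 145 lower. No split over all genes was computed with that filter. At D8, compared with D4, 14 lincRNAs (11.02%) were higher and 25 (19.7%) lower, with 4.75% and 10.4% over all genes. That split depends on the scaling: with median-ratio size factors over the mRNAs, 20 were higher and 19 lower, and the median log2 ratio over mRNAs in that comparison was -0.21 before this scaling.

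At D4, compared with D0, 21 lincRNAs (16.5%) were higher and 35 (27.6%) lower, with 10.7% and 9.57% over all genes. Among the 784 lincRNAs with at least 30 reads, that excess of lower lincRNAs was not seen (222 higher and 219 lower). For this filter too, the split over all genes was not computed. At D8, compared with D0, 11 (8.66%) were higher and 32 (25.2%) lower, with 3.87% and 4.82% over all genes. The median log2 ratio of the lincRNAs was -0.06 for D2 vs D0, -0.09 for D4 vs D2, -0.18 for D8 vs D4, -0.09 for D4 vs D0 and -0.36 for D8 vs D0. Over all genes it was -0.03, 0.09, -0.21, 0.05 and -0.18 in the same order. The counting interval of the log2 ratio left out 0 for each of the lincRNAs counted in these comparisons except 1 of the 29 in D4 vs D2. It lay wholly beyond 2-fold for 28 of 43 in D2 vs D0, 7 of 29 in D4 vs D2, 17 of 39 in D8 vs D4, 38 of 56 in D4 vs D0 and 24 of 43 in D8 vs D0.

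**Figure D3:**
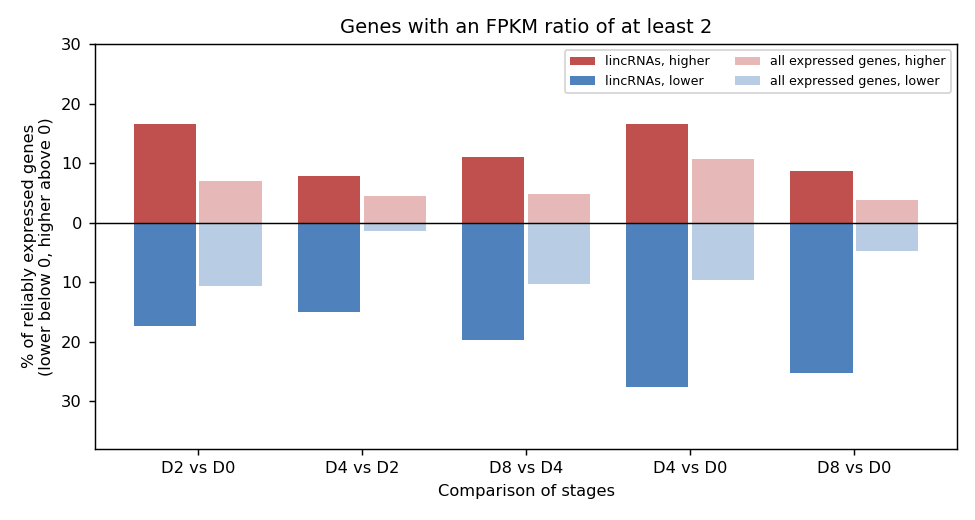
Percent of reliably expressed genes with an FPKM ratio of at least 2 in each comparison (vertical axis, higher above 0 and lower below 0), for the 127 lincRNAs (dark bars) and all 9929 reliably expressed genes (pale bars). The lincRNA bars are longer in every comparison and direction, from 7.87% (higher, D4 vs D2) to 27.6% (lower, D4 vs D0). There is 1 pooled library per stage and no error bar.

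The stage of the highest FPKM was D0 for 53 of the 127 lincRNAs (41.7%), D4 for 36 (28.3%), D2 for 31 (24.4%) and D8 for 7 (5.51%). Over all reliably expressed genes, the shares with their highest FPKM there were 36.4% for D0, 36.4% for D4, 17.3% for D2 and 9.84% for D8. The lowest FPKM was at D8 for 42 lincRNAs, at D4 for 35, at D0 for 31 and at D2 for 19. The shares by lowest stage were not computed over all genes, so that these counts cannot be read as particular to lincRNAs. All genes leaned lower at D8 too, with a median log2 ratio of -0.21 for D8 vs D4 and -0.18 for D8 vs D0.

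At D2, D4 and D8 alike, 8 lincRNAs were at least 2-fold higher than at D0 (2.57% of all reliably expressed genes were) and 8 at least 2-fold lower (2.22% of all). Of the 8 higher ones, 6 had an FPKM under 1 at D0 and so passed the filter only through the 3 stages where they were high. With an FPKM of at least 1 asked of all 4 libraries, or with a pseudocount of 1, 2 were higher. The 3 comparisons share the D0 library. MSTRG.49742 (chr5:24874032-24878228, plus strand) was the most abundant of the higher ones, with 1.78 (D0), 9.37 (D2), 14.9 (D4) and 7.24 FPKM (D8). It lies 2141 bases downstream of SLC16A7, a monocarboxylate transporter gene, on the same strand, and SLC16A7 had 2.33, 10.1, 14.5 and 8.48 FPKM at the same stages. The log2 ratio for D4 vs D0 was 3.06 (2.933 to 3.199) for the lincRNA and 2.63 for the mRNA, and both were highest at D4.

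MSTRG.62128 (chr6:79810276-79811573, plus strand), for which primers are shown above, was at 0.364 (D0), 3.06 (D2), 4.01 (D4) and 1.19 FPKM (D8). It starts 35 bases from USP48, a deubiquitinase gene on the other strand, which stayed between 5.32 and 7.08 FPKM. The log2 ratio of MSTRG.62128 was 3.42 (2.93 to 4.03) for D4 vs D0 and -1.74 (-2.13 to -1.39) for D8 vs D4, while USP48 was at 0.28 and -0.41. MSTRG.42239 (chr4:70928839-70933680, plus strand), also with primers shown, had a similar course, with 0.396, 3.04, 3.37 and 1.21 FPKM. It overlaps YTHDF3, a reader of methylated adenosine in RNA, on the opposite strand, and YTHDF3 had 12.2, 20.8, 24.3 and 13.5 FPKM. Its log2 ratio for D4 vs D0 was 3.06 (2.77 to 3.42), that of YTHDF3 0.99.

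MSTRG.100469 (chr11:70939841-70943021, minus strand), divergent from the peptidase gene TPP2 at 121 bases, was highest at D2, with 0.418, 2.83, 1.27 and 1.03 FPKM at the 4 stages. TPP2 differed little, between 7.44 and 10.4 FPKM. MSTRG.18804 (chr2:15927825-15929970, plus strand), 677 bases downstream of the transposase-derived gene HARBI1, stayed high after D2, with 1.23, 4.25, 3.42 and 3.27 FPKM. MSTRG.5521 (chr1:99227861-99246997, plus strand) had 0.757, 2.90, 3.89 and 2.25 FPKM, and its nearest mRNA at 37.5 kb, ACAA2, a mitochondrial thiolase of fatty acid oxidation, had 12.3, 21.4, 31.9 and 32.0 FPKM. Both genes of that pair were lowest at D0, but from D4 to D8 the lincRNA was lower (log2 ratio -0.79, -1.43 to -0.18) and ACAA2 was not (0.01).

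The last 2 of the higher lincRNAs were above D0 where their neighbours were below it. MSTRG.6375 (chr1:112942445-112944976, plus strand) starts 227 bases from CCNB2, the mitotic cyclin B2 gene, in the divergent direction. The lincRNA had 0.438 (D0), 1.13 (D2), 1.89 (D4) and 1.47 FPKM (D8), and CCNB2 had 8.68, 0.926, 4.30 and 4.72. For D2 vs D0 the log2 ratio was 1.35 (0.769 to 1.998) for MSTRG.6375 and -3.22 for CCNB2. MSTRG.58078 (chr6:43527546-43528055, plus strand) lies 622 bases upstream of KCTD15, a gene of the BTB domain family. It rested on 1 read (D0), 15 (D2), 22 (D4) and 27 (D8), or 0.0574, 1.18, 1.28 and 2.16 FPKM, and its log2 ratio for D8 vs D0 of 5.01 has a counting interval from 2.63 to 10.59. KCTD15 had 12.5, 6.80, 5.12 and 8.62 FPKM.

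**Figure D4:**
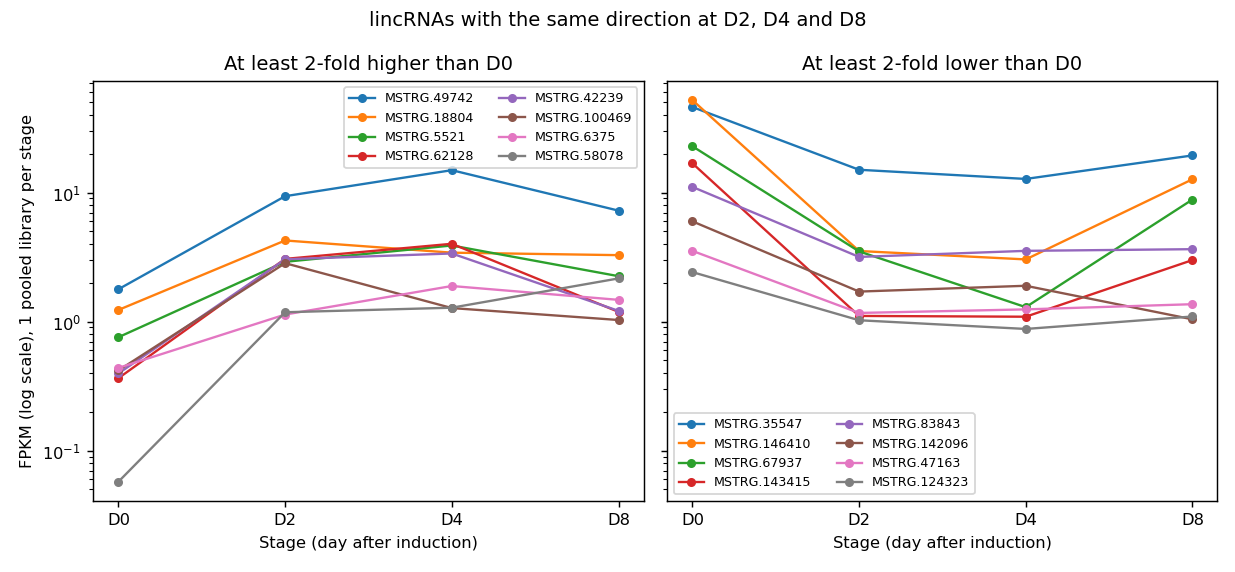
FPKM (vertical axis, log scale) at the 4 stages (horizontal axis) of the 8 lincRNAs at least 2-fold higher than D0 at D2, D4 and D8 (left) and of the 8 at least 2-fold lower (right). Each point is 1 pooled library. MSTRG.49742 reaches 14.9 FPKM at D4, and MSTRG.146410 and MSTRG.67937 are lowest at D4 and higher again at D8.

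Among the 8 lower lincRNAs, MSTRG.146410 (chr17:54491694-54533892, plus strand; primers above) had 52.0 (D0), 3.52 (D2), 3.03 (D4) and 12.7 FPKM (D8). Its log2 ratio was -4.10 (-4.47 to -3.76) for D4 vs D0 and 2.06 (1.67 to 2.47) for D8 vs D4, so that it was lowest at D4 and partly back at D8. The nearest mRNA, the transcription factor gene ZNF217, lies 72.0 kb away and had 1.15, 3.73, 4.34 and 1.20 FPKM. It was high at D2 and D4, where the lincRNA was lowest, and at D8 it was near its D0 level while the lincRNA was still below its own. MSTRG.143415 (chr17:14845490-14845865, minus strand) and MSTRG.67937 (chr7:5669670-5734016, minus strand) had the same shape. MSTRG.143415 was at 16.8, 1.11, 1.09 and 3.00 FPKM, and MSTRG.67937 at 22.8, 3.50, 1.29 and 8.82 FPKM. For both, D8 was higher than D4, with log2 ratios of 1.45 (0.72 to 2.23) and 2.76 (2.20 to 3.39). MSTRG.143415 overlaps an antisense lncRNA on its own strand, so that its reads and those of that lncRNA may be shared.

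The other 5 lower lincRNAs stayed low or nearly so. MSTRG.35547 (chr3:93248861-93258223, minus strand) had 46.0 (D0), 15.01 (D2), 12.7 (D4) and 19.4 FPKM (D8). MSTRG.83843 (chr9:613688-623901, plus strand) had 11.05, 3.17, 3.53 and 3.64 FPKM, and ST5, a gene of the DENN domain family 29.9 kb downstream of it, had 9.505, 2.69, 3.16 and 3.73. The D2 vs D0 log2 ratios of that pair were -1.80 (-2.20 to -1.42) and -1.82, and the levels were close as well. MSTRG.142096 (chr16:71846149-71849160, plus strand) was lower at every later stage, with 5.98, 1.71, 1.89 and 1.04 FPKM, while the annexin gene ANXA6, 8069 bases downstream, was low at D2 and D4 and back at D8, with 223, 78.9, 86.0 and 187 FPKM. MSTRG.47163 (chr4:129358210-129360362, minus strand), 1234 bases downstream of the endophilin gene SH3GLB1, had 3.53, 1.17, 1.24 and 1.36 FPKM, and MSTRG.124323 (chr14:61719432-61793309, plus strand), 53 bases upstream of the RNA-binding protein gene BICC1, had 2.42, 1.02, 0.877 and 1.09 FPKM. BICC1 was not lower than at D0, with 23.2, 35.7, 33.0 and 24.5 FPKM.

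Between successive stages, the most extreme ratios often rested on few reads. From D0 to D2, MSTRG.72492 (chr7:60698465-60700591, minus strand) had the lowest ratio, with 37 (D0), 1 (D2), 50 (D4) and 25 reads (D8), or 1.08, 0.0399, 1.47 and 1.01 FPKM. The lone D2 library was the exception for it, and the counting interval of its D2 vs D0 log2 ratio of -4.44 ran from -10.10 to -2.19. It was also the lincRNA with the highest ratio from D2 to D4, followed by MSTRG.52784 (chr5:74286084-74288444, minus strand), which had 1.46, 0.432, 1.89 and 1.57 FPKM and was likewise low at D2 alone. In the other direction, MSTRG.139085 (chr16:24878312-24881625, plus strand) had 10.04 (D0), 8.38 (D2), 1.61 (D4) and 2.49 FPKM (D8). Its log2 ratio for D4 vs D2 was -2.37 (-2.99 to -1.81), and MSTRG.96294 (chr10:52575946-52577100, minus strand), with 2.51, 2.56, 0.685 and 1.07 FPKM, also stepped down between D2 and D4.

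From D4 to D8, the highest ratio was that of MSTRG.111641 (chr13:75584950-75585607, plus strand), with 34.1 (D0), 8.89 (D2), 4.56 (D4) and 31.4 FPKM (D8). Its log2 ratio was 2.78 (2.57 to 3.01) for D8 vs D4 and -0.12 (-0.23 to -0.003) for D8 vs D0, so that D0 and D8 were close and D2 and D4 low. Its nearest mRNA at 14.2 kb, ANAPC13, a subunit of the anaphase-promoting complex, had 74.4, 56.8, 51.0 and 84.2 FPKM. The lowest ratios from D4 to D8 were those of MSTRG.63362 (chr6:93979198-93980444, minus strand), which had 1.61, 1.65, 1.43 and 0.280 FPKM, and of MSTRG.104810 (chr12:43327510-43328400, minus strand). For MSTRG.63362 the log2 ratio for D8 vs D4 was -2.31 (-4.32 to -0.83), on 28 (D4) and 4 (D8) recovered reads. Its recovered reads were lower than the listed ones, so that this interval may be too wide. MSTRG.104810 was highest at D4, with 1.15, 2.82, 6.56 and 1.42 FPKM, and its log2 ratio for D8 vs D4 was -2.20 (-2.63 to -1.81).

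Some lincRNAs had 1 stage that stood above the rest. MSTRG.143415 at D0 was 5.62 times its next highest stage, and MSTRG.146410 at D0 was 4.11 times. At D2, MSTRG.100469 stood 2.23 times above its next stage and MSTRG.155790 (chrX:124949415-124952322, minus strand) 2.11 times, with 2.18, 4.99, 2.23 and 2.37 FPKM. At D4, MSTRG.104810 and MSTRG.121373 stood 2.33 and 2.03 times above. MSTRG.121373 (chr14:28591248-28624723, plus strand) had 1.74, 0.869, 3.53 and 1.71 FPKM. At D8 the largest such ratio was 1.86, that of MSTRG.15576 (chr1:256060412-256094269, plus strand), with 4.91, 5.37, 12.7 and 23.5 FPKM. MSTRG.15576 was at the same level at D0 and D2 and higher at each later stage, with a log2 ratio for D8 vs D0 of 2.26 (2.03 to 2.50).

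At the other end, 12 of the 127 lincRNAs (9.45%) had a highest FPKM under 1.5 times the lowest, against 36.8% of all genes, and 6 had a ratio of at least 10. The 4 steadiest were MSTRG.123937, MSTRG.94165, MSTRG.133688 and MSTRG.16873. MSTRG.123937 (chr14:59012582-59022399, minus strand), 4896 bases downstream of TSNAX, had 3.03, 3.35, 3.43 and 3.09 FPKM. MSTRG.94165 (chr10:25444737-25448285, plus strand), 128 bases downstream of AAED1, had 1.70, 1.72, 1.72 and 1.47 FPKM. MSTRG.133688 (chr15:79930125-79935855, minus strand), 131 bases downstream of the transcription factor gene SP3, had 1.26, 1.31, 1.21 and 1.09 FPKM. MSTRG.16873 (chr1:272741991-272743291, minus strand), divergent from the transcription factor IIIC subunit gene GTF3C5 at 236 bases, had 2.54, 2.73, 2.75 and 2.17 FPKM. Of these 4, 3 lie on the strand of the mRNA and downstream of it, and the mRNAs were steady too: SP3, for example, was between 23.2 and 28.0 FPKM.

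Genes of 4 lists were looked up among the nearest mRNAs. Regulators of adipogenesis (55 measured) had 14 lincRNAs within 50 kb, developmental transcription factors (144 measured) had 23, genes of the extracellular matrix and cytoskeleton (49 measured) had 15 and genes of lipid metabolism (54 measured) had 8. Reliably expressed were 3 of the 14, 3 of the 23, 0 of the 15 and 0 of the 8, against 106 of the 1196 lincRNAs within 50 kb of any mRNA (8.86%). The lists are too short to read a difference from that share. The 2 lists of regulators share members, and 4 different lincRNAs stand behind those counts.

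MSTRG.137809 (chr15:138285685-138291472, minus strand), 9344 bases from the end of TWIST2, a basic helix-loop-helix transcription factor gene on the other strand, had 3.54 (D0), 1.304 (D2), 0.813 (D4) and 3.14 FPKM (D8). TWIST2 had 29.998, 60.1, 52.6 and 24.1 FPKM, so that it was high at the 2 stages where the lincRNA was low. The log2 ratios for D2 vs D0 were -1.43 (-1.62 to -1.27) and 1.003, and those for D8 vs D4 were 1.94 (1.75 to 2.15) and -1.12. MSTRG.62190 (chr6:81424294-81444897, plus strand) starts 125 bases from ID3, an inhibitor of helix-loop-helix factors, in the divergent direction. It had 1.76, 1.73, 1.70 and 0.665 FPKM, and ID3 had 793, 484, 546 and 345. Both were lowest at D8, with log2 ratios for D8 vs D0 of -1.39 (-2.02 to -0.82) and -1.20. For D2 vs D0 the log2 ratio of the lincRNA was -0.02 (-0.45 to 0.40). MSTRG.133853 (chr15:81953532-81957512, plus strand), 11.97 kb upstream of the homeobox gene HOXD3, was highest at D0, with 2.98, 1.21, 1.37 and 1.79 FPKM, whereas HOXD3 was low throughout (0.384 to 0.438 FPKM). MSTRG.24891 (chr2:100293522-100444738, minus strand), divergent from the nuclear receptor gene NR2F1 at 2923 bases, was above NR2F1 at every stage, with 1.42, 1.15, 1.01 and 0.636 FPKM against 0.287, 0.408, 0.652 and 0.214.

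Both members were reliably expressed in 77 pairs of a lincRNA and its nearest mRNA within 50 kb. They lay on the same side of 1 in 40 pairs (51.9%) for D2 vs D0, 51 (66.2%) for D4 vs D2, 52 (67.5%) for D8 vs D4, 42 (54.5%) for D4 vs D0 and 48 (62.3%) for D8 vs D0. These shares have no test, and those for D8 vs D4 and D8 vs D0 move with the scaling (57.1% and 54.5% with median-ratio size factors). With the nearest reliably expressed mRNA taken instead, the share for D4 vs D2 was 59.6%. No share for lincRNAs and mRNAs that are not neighbours was computed. In D8 vs D4 both kinds leaned lower: 51 of the 127 lincRNAs were above D4, and the median log2 ratio of mRNAs was -0.21. In D2 vs D0, both were at least 2-fold from D0 in 7 pairs, 5 in the same direction and 2 in opposite directions. In D4 vs D0 there were 12 such pairs, 10 in the same direction and 2 in opposite directions. The counts were 3 and 2 for D8 vs D4, 5 and 0 for D8 vs D0, and 0 and 0 for D4 vs D2. In the other pairs, the 2 genes moved by less than 2-fold or only 1 of them moved so far: in D4 vs D0, 34 lincRNAs and 16 mRNAs of the 77 pairs were at least 2-fold from D0.

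Besides the pairs already given (MSTRG.49742 and SLC16A7, MSTRG.5521 and ACAA2, MSTRG.83843 and ST5, MSTRG.142096 and ANXA6), the next pairs in the same direction, ranked by the ratio of the lincRNA, were those of MSTRG.90040, MSTRG.141125 and MSTRG.125308. MSTRG.141125 (chr16:50821255-50990941, minus strand), which overlaps STC2, a secreted stanniocalcin gene, on the opposite strand, had 3.94 (D0), 2.21 (D2), 1.16 (D4) and 3.77 FPKM (D8). STC2 had 25.1, 6.87, 5.55 and 23.9 FPKM. Both were lowest at D4 and back near the D0 level at D8, with D8 vs D4 log2 ratios of 1.70 (1.46 to 1.96) and 2.10. MSTRG.90040 (chr9:93308352-93314825, plus strand), divergent at 202 bases from CROT, a peroxisomal carnitine acyltransferase gene, had 3.59, 1.90, 0.954 and 2.25 FPKM, and CROT had 61.2, 28.5, 27.6 and 33.5 FPKM. MSTRG.125308 (chr14:77935619-77936300, minus strand), 6865 bases upstream of the zinc finger gene ZNF503 on the same strand, had 2.27, 6.998, 7.10 and 3.01 FPKM. ZNF503 had 2.45, 6.46, 7.57 and 1.95 FPKM, so that both were high at D2 and D4, with D4 vs D0 log2 ratios of 1.64 and 1.63. Besides the pairs with CCNB2, KCTD15 and TWIST2, an opposite course was seen for MSTRG.121705 (chr14:32778804-32798942, plus strand), 1800 bases from the end of the ubiquitin ligase gene BRAP. It had 4.83, 4.28, 1.58 and 3.19 FPKM, and BRAP had 4.64, 8.72, 9.22 and 4.001.

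**Figure D5:**
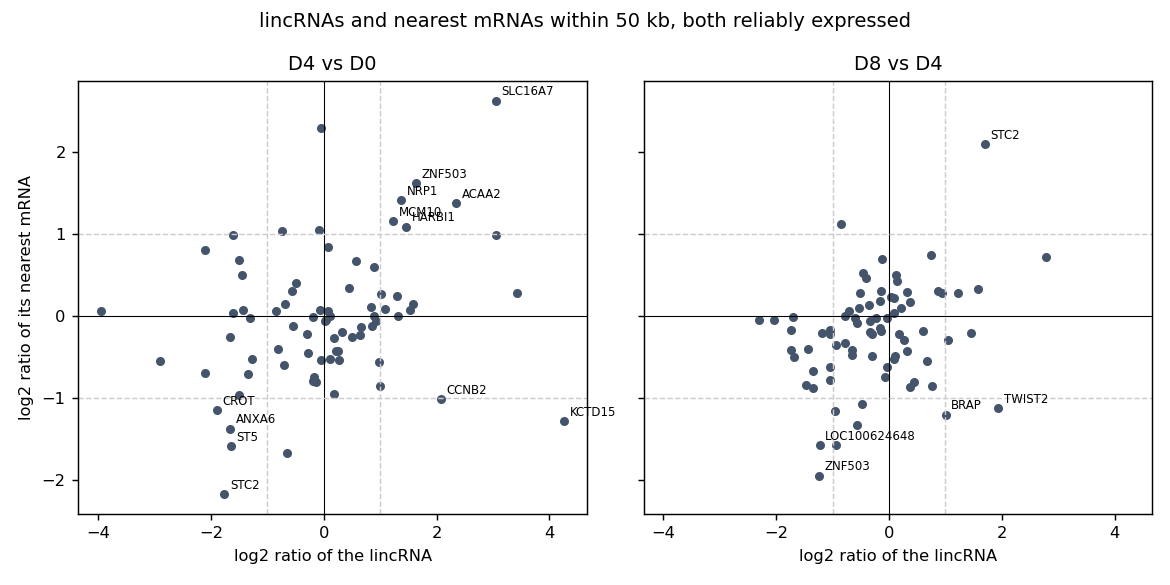
Log2 FPKM ratio of a lincRNA (horizontal axis) and of its nearest mRNA (vertical axis) for 77 pairs within 50 kb, both reliably expressed, for D4 vs D0 (left) and D8 vs D4 (right). Each point is 1 pair, dashed lines mark 2-fold, and the mRNA is named where both passed it: 10 pairs in the same direction and 2 in opposite directions on the left, 3 and 2 on the right.

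Circular RNAs, which form when a downstream splice site joins an upstream one, were listed inside the spans of 8 lincRNAs on the same strand. They numbered 15 of the 8623 circRNAs, and none of the 15 lay in another listed gene. Their junction reads came to 51 (D0), 55 (D2), 65 (D4) and 29 (D8), where 1 read equals between 5.94 and 8.40 SRPBM (junction reads scaled to all mapped reads). MSTRG.141125 held 5 of them and MSTRG.24891 held 4. In MSTRG.24891, ssc_circ_0000913 (chr2:100380422-100396011) had 18 (D0), 6 (D2), 15 (D4) and 0 junction reads (D8), where 0 reads allow up to 3. In MSTRG.141125, ssc_circ_0007840 (chr16:50890851-50957013) had 4, 11, 15 and 0. MSTRG.96543 (chr10:56427087-56567059, plus strand), opposite the semaphorin and VEGF receptor gene NRP1, had 1 circRNA found at every stage, with 3, 6, 11 and 9 junction reads, or 19.3, 43.6, 65.3 and 75.6 SRPBM. MSTRG.96543 itself had 0.940, 1.84, 2.45 and 1.25 FPKM, and NRP1 14.1, 31.3, 37.8 and 17.0. The lincRNA and NRP1 were highest at D4. The SRPBM of the circRNA was highest at D8, but on 9 junction reads against 11 at D4, too few to order these 2 stages. MSTRG.31926 (chr3:40960729-40992918, minus strand), which was not reliably expressed, had 0.284, 1.10, 1.05 and 0.491 FPKM and 1 circRNA with 0, 0, 11 and 8 junction reads.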

How the data were processed

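RNA was measured in 4 libraries, 1 per stage. Per the labels and methods, the authors pooled RNA of 3 pigs per stage, removed rRNA and made strand-specific libraries. They aligned reads with HISAT2 (version 2.0.5, from the submitters' processing notes) and assembled transcripts. Unannotated ones were kept with at least 2 exons, at least 200 nucleotides and no coding potential. Transcripts with low read coverage in all samples were removed, so that coverage at 1 stage was enough to stay. The authors deposited FPKM for genes and SRPBM, a signal of back-splice junction reads scaled to all mapped reads, for circRNAs.

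Library totals were computed from the counts and normalized counts in the study's lists. Reads were then recovered from FPKM at the smallest length of at least 200 bases that gave whole reads (within 0.001) in all 4 libraries. A length was found for 1625 of 1625 lincRNAs, 507 of them with only 1 possible length, and 280 of 290 values (96.6%) were equal to listed counts. For the 3 other lincRNAs, MSTRG.100623, MSTRG.141125 and MSTRG.63362, the recovered reads were lower than the listed ones. Where several lengths fit, lengths and reads are lower limits, and intervals of ratios may be too wide. Shares of reads may then be off by more than their intervals.

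Reliable expression (FPKM of at least 1 in at least 3 libraries), the ratio of 2 and the 50 kb window follow the study. Ratios are of FPKM + 0.01, which understates changes of low genes. Gaps run between gene spans. Intervals are 95% Clopper-Pearson (ratios) or Wilson (shares). Named lincRNAs are the 8 highest in mean FPKM, those at least 2-fold from D0 at D2, D4 and D8, the 2 that most exceed the next stage for each stage, the 2 largest changes each way between successive stages, the 4 steadiest, the 4 with most circRNA signal, those near list genes, those with primers or named in the study, and the pairs with the largest ratios. The members, gene lists and tests were chosen with earlier results of these data known. Alternatives were pseudocounts, filters, scaling and windows. Scripts were tested on simulated data. Python 3.11.15, pandas 2.3.3 and scipy 1.17.1 were used. A genome was not used here, so promoter sequences were not examined.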

Additional observations from a re-analysis of the deposited data

How the results depend on the processing

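No stage has a replicate library, so no library could be left out in turn and no value given here carries a biological error. No paired analysis was possible because each stage has 1 pooled library. The counts of lincRNAs at least 2-fold apart stayed within 1.5 times of those reported with a pseudocount of 0.1 and with median-ratio size factors. So did the number of lincRNA and mRNA pairs in every alternative run, and the number of lincRNAs near an mRNA with windows of 10 and 100 kb. For the shares of pairs in the same direction, that margin is too wide to show stability. Median-ratio size factors moved the share from 67.5% to 57.1% for D8 vs D4 and from 62.3% to 54.5% for D8 vs D0. For D4 vs D0 the share went the other way, from 54.5% to 57.1%. Taking the nearest reliably expressed mRNA moved the share for D4 vs D2 from 66.2% to 59.6%. The filter on low values moved the counts of lincRNAs at least 2-fold apart most. The numbers that follow stand for D2 vs D0, D4 vs D0, D8 vs D0, the steps D2 to D4 and D4 to D8, and all 3 later stages vs D0, in that order. Without a filter (1625 lincRNAs), 443, 520, 413, 502, 422 and 140 were higher and 560, 539, 561, 361, 549 and 293 lower. With at least 30 reads (784), 204, 222, 167, 195, 178 and 91 were higher and 231, 219, 236, 145, 248 and 89 lower. With an FPKM of at least 1 in at least 1 library (400), 111, 99, 73, 87, 101 and 33 were higher and 129, 141, 128, 96, 112 and 69 lower. With an FPKM of at least 1 in all 4 libraries (81), 11, 7, 4, 4, 10 and 2 were higher and 14, 24, 17, 10, 10 and 7 lower. With a pseudocount of 1, 13, 11, 3, 4, 7 and 2 of the 127 were higher and 11, 28, 17, 5, 11 and 6 lower. These alternatives test more or fewer lincRNAs, or shrink the ratios of low ones, by construction. No shares over all genes were computed for them, so that these counts cannot be read as particular to lincRNAs. Reliably expressed would be 199 lincRNAs with an FPKM of at least 1 in at least 2 libraries, 81 in all 4 libraries and 260 with an FPKM of at least 0.5 in at least 3. The share of the summed FPKM on lincRNAs was 0.338% (D0), 0.282% (D2), 0.263% (D4) and 0.244% (D8). Without the signal recognition particle RNA, an alternative chosen after seeing the data, it was 0.597%, 0.565%, 0.456% and 0.476%. Of 705 alternative log2 ratios of the named lincRNAs, 596 stayed within the counting interval, 109 left it and 0 of those at least 2-fold apart turned in sign. Depth limits the scarce lincRNAs: 278 of the 1625 rest on fewer than 10 reads over all stages. Windows on promoters were planned but not run, since no genome was used here.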

Other observations

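Among the 1498 lincRNAs that were not reliably expressed, many were seen at 1 stage only. Reads at D0 alone were found for 121 of them, at D2 alone for 65, at D4 alone for 88 and at D8 alone for 67, mostly on few reads (medians of 10, 8, 8 and 6). An FPKM of at least 1 was reached at D0 alone by 70, at D2 alone by 56, at D4 alone by 45 and at D8 alone by 30. D0 and D4 were the deeper libraries. The lincRNAs were assembled from these same 4 libraries, so that reads at 1 stage could be enough to bring a lincRNA into the list. Counts of lincRNAs seen at 1 stage only are therefore in part built in by that selection. No share over all genes was set beside them. With at least 30 reads at a stage, and an FPKM at least 4 times that of any other stage, 27 lincRNAs stood out (D0), 6 (D2), 13 (D4) and 6 (D8).

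The lincRNAs in this paragraph were chosen after their values were seen. MSTRG.93762 (chr10:21316161-21316978, plus strand) had 80 reads at D0 and 0 at D2, D4 and D8, where 0 reads allow up to 3. MSTRG.103765 (chr12:26531967-26533411, plus strand) had 37 reads at D2 and 0 elsewhere, and MSTRG.67782 (chr7:4226104-4226540, minus strand) had 31 reads at D4 and 0 elsewhere. MSTRG.12452 (chr1:208703649-208723940, minus strand) had 0, 0, 15 and 101 reads. The nearest mRNA of MSTRG.12452, the transcription factor gene NFIB at 276 kb, was at 1.68, 7.46, 14.9 and 4.77 FPKM and so was highest at D4, not at D8. MSTRG.117528 (chr13:173622570-173623521, minus strand) had 4, 44, 5 and 0 reads, whereas GBE1, the glycogen branching enzyme gene 10.9 kb away in the divergent direction, was higher at each later stage, with 22.3, 34.1, 50.2 and 86.4 FPKM.

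On the Y chromosome lay 16 lincRNAs, 2 of them reliably expressed. MSTRG.156003 (chrY:4220735-4541213, plus strand) had 50.1, 53.03, 58.2 and 24.8 FPKM, and MSTRG.156009 (chrY:4540872-4541120, minus strand), whose span lies within that of MSTRG.156003 on the other strand, had 28.3, 28.9, 33.6 and 17.4. Both were highest at D4 and lowest at D8, and since their spans overlap they may share reads. MSTRG.156150 (chrY:9984852-9991771, plus strand), not reliably expressed, had 1296 (D0), 48 (D2), 100 (D4) and 235 reads (D8), that is 2.66, 0.135, 0.208 and 0.672 FPKM, which is highest at D0 and lowest at D2.

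Antisense lncRNAs, assembled in the same way, came nearest to the lincRNAs in how often they differed between stages, taken over all levels. Of 95 reliably expressed ones, 60 (63.2%) were at least 2-fold apart in at least 1 comparison, against 70.9% of lincRNAs. The same held for 79 of 208 annotated lncRNAs (37.98%) and 29.9% of mRNAs. By level the 2 kinds parted. Under a mean FPKM of 5, 40 of 68 antisense lncRNAs (58.8%) and 66 of 87 lincRNAs (75.9%) differed. From 5 upwards, 20 of 27 (74.1%) and 24 of 40 (60.0%) did, so that the order there rests on few genes. No test was made of these differences.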
